A study of Mus musculus with 10 samples.

Results

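The 10 genes described here are those of the MHC class II pathway: the chain genes H2-Aa, H2-Ab1 and H2-Eb1, the invariant chain gene Cd74, the transactivator gene Ciita, the peptide exchange genes H2-DMa, H2-DMb1 and H2-DMb2, and the H2-Oa and H2-Ob genes of the DM inhibitor. They were taken by symbol from a table of 55401 genes counted in 10 tumors. All 10 were present, and 8 of them passed the filter on low counts, as did 17464 genes in all. The tumors grew from KPN1.1, a single mouse lung adenocarcinoma line which carries the NINJA neoantigen system, after 75000 cells had been placed under the skin of the flank, so the site was not the lung. The hosts were male C57BL/6J mice made obese with a diet in which 60% of the calories came from fat, and they were 7 to 17 weeks old at injection. From the time that a tumor could be felt, mice received liraglutide, an agonist of the GLP-1 receptor used against diabetes and obesity, at 0.2 µg per g of body weight daily into the peritoneum, or PBS as the vehicle. Of the tumors counted, which were those kept after a quality assessment by the authors, 5 are labelled as treated and 5 as control. Tumors were taken between days 19 and 22. A frozen fragment of each gave the RNA, which therefore came from cancer cells and host cells together, and in such bulk RNA fewer cells of a type and less RNA per cell cannot be told apart.

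MHC class II molecules are pairs of an alpha and a beta chain that display peptides of engulfed proteins to CD4+ T cells. Dendritic cells, macrophages and B cells make them, and interferon-gamma can induce them in epithelial cells, lung adenocarcinoma cells among them. CIITA does not itself bind DNA. It is recruited to the X and Y boxes of class II promoters by the RFX, CREB and NF-Y factors already bound there, and its level largely sets that of the chain genes, Cd74 and the DM genes. Invariant chain escorts new class II molecules to endosomes, where proteases trim it to the CLIP peptide, DM exchanges CLIP for antigenic peptide, and DO holds DM back, chiefly in B cells.

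The upstream bases of 6 members are shown because class II genes are known to share the X and Y boxes and the 8 tested members varied together from tumor to tumor. From the RefSeq promoters (GRCm38.p6), 9 windows of 8 genes were taken. These genes were 7 of the members and H2-Eb2, a beta chain gene next to H2-Eb1. Cd74, H2-Ab1 and Ciita were not among them, so the tallies below leave these members out. The letters GATTGG, the reverse complement of CCAATC and the usual form of the Y box, were searched on both strands in the 250 bases before each start and were found in 8 of the 9 windows, against 14.6% of all 32851 windows. A loose form of the X box, the letters AG, AC and ATG in this order with 2 free bases between each, was found in 5 of the 9, against 2.6% of all windows, and both together in 5 of the 9, against 0.371%. The shorter letters CCAAT were found in 8 of the 9, against 33.8% of all windows. Of other letters searched, TTCNNNGAA (N for any base) was found in 1 of the 9, against 7.02%, and CACGTG in 0, against 6.02%. The 9 windows include those of duplicated neighbors and a further window of H2-DMa, so they are not separate observations. In the 6 stretches below, all written 5′ to 3′ on the strand of the gene and aligned on the Y box, capitals mark the X and Y box letters.
H2-Eb1, chr17:34305757-34305826, plus strand: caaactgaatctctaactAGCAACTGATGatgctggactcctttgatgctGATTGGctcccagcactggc
H2-DMb1, chr17:34153079-34153148, plus strand: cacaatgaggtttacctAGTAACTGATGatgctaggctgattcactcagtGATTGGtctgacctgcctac
H2-DMb2, chr17:34145108-34145177, plus strand: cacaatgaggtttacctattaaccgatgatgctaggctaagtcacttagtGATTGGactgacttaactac
H2-Ob, chr17:34238797-34238866, plus strand: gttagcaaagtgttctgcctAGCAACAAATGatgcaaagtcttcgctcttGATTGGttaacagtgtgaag
H2-Aa, chr17:34287853-34287922, minus strand: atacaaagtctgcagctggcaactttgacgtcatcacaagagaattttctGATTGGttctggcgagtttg
H2-Oa, chr17:34092285-34092354, plus strand: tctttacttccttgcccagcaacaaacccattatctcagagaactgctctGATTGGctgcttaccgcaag
In H2-Eb1, H2-DMb1 and H2-Ob the X box letters began 32, 33 and 30 bases before the Y box. H2-Oa held the X box letters farther upstream, at -141, and not in the stretch shown. The letters searched for the X box were not found in the windows of H2-Aa and H2-DMb2, where the Y box began at -49 and -91, nor in those of H2-DMa. H2-DMb1 and H2-DMb2, duplicated neighbors, had the same base at 61 of the 70 positions. H2-DMa had the Y box letters at -199 in one of its windows and in the other window not at all.

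Except for Ciita on chromosome 16 (10297923 to 10347694) and Cd74 on chromosome 18 (60936899 to 60945731), the members lie together on chromosome 17 in GENCODE M39 (GRCm39). H2-Oa (34311314 to 34314328) and H2-DMa (34338515 to 34358958) come first, then H2-DMb2 (34362197 to 34370529), H2-DMb1 (34372046 to 34379204), H2-Ob (34457836 to 34473388), H2-Ab1 (34476663 to 34488393), H2-Aa (34493404 to 34506798) and H2-Eb1 (34504236 to 34535648). All the members lie on the plus strand except H2-Aa, whose exons share 118 bases with those of H2-Eb1 on the other strand. The exons of Ciita share 633 bases, or 5.73% of its exon length, with those of Dexi on the other strand, H2-DMa shares 11.8% with Brd2, and H2-Oa, which had few counts, shares 396 bases or 25.9% with BC051537. H2-Eb1 shares 130 bases or 5.01% with Gm20513 on the other strand, and Cd74 shares 88 bases or 3.5% with Mir5107 on its own strand. H2-DMb1 and H2-DMb2 hold 179 stretches of 100 bases, the read length, in common, which is 11.3% of those in H2-DMb1 and 8.71% of those in H2-DMb2. The libraries were stranded, but neither the strand setting of the counting nor the handling of reads with several matches is given in the sources used here. Reads of these shared bases could thus have been assigned to either gene or to neither.

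Total counts per tumor ranged from 9927942 to 14480593, and 3 counts, taken as the floor, were 0.207 to 0.315 CPM (counts per 1000000 of the TMM-scaled library size). The cancer cell genes Krt8 and Krt18 were high in all tumors, and Nkx2-1, the lineage factor of lung epithelium, lay between 17.7 and 132 CPM. Liraglutide tumors 2, 4 and 5 stood apart in keratinocyte genes, whose summed level was 210, 77.8 and 53.9 CPM, against 7 to 18.8 CPM in the other tumors. Cd207, the defining gene of Langerhans cells, which are class II-rich cells of the epidermis, had 0 to 6 counts in every tumor.

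The comparison asks whether liraglutide changed class II gene expression in the tumors. Of the 8 class II genes tested, 0 were called, that is, had an adjusted p below 0.05 together with a change of more than 0.58 in either direction on the log2 scale (edgeR's quasi-likelihood test, Benjamini-Hochberg adjustment over all genes), and the percentage of all genes called was 0 as well. All 8 had a higher fitted level with liraglutide, between 1.57-fold for H2-Ab1 and 2.3-fold for H2-DMb2, where 47.4% of all tested genes had a positive log2 fold change. All 8 also passed 0.58 on the log2 scale, which 5.38% of all tested genes did. Their median log2 fold change was 0.76, against -0.02 over all tested genes. One member, H2-DMb2, had an unadjusted p under 0.05 in the higher direction, as did 3.97% of all tested genes, and 0 members had one in the lower direction, against 5.62%. DESeq2 called 0 members too, against 0.0342% of the 35103 genes it fitted, and gave 2 members (Ciita and H2-DMb2) an unadjusted p under 0.05 in the higher direction, against 2.83%. limma-voom gave the same 2 members such a p, against 4.86%. For none of the 8 did the groups separate, since vehicle tumors 4 and 5 reached into the liraglutide range for each of them, whereas 0.607% of tested genes were higher in every liraglutide tumor than in every vehicle tumor and 0.888% were lower. The 8 genes follow 1 pattern over the same tumors and so do not count as 8 separate observations.

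**Figure D1:**
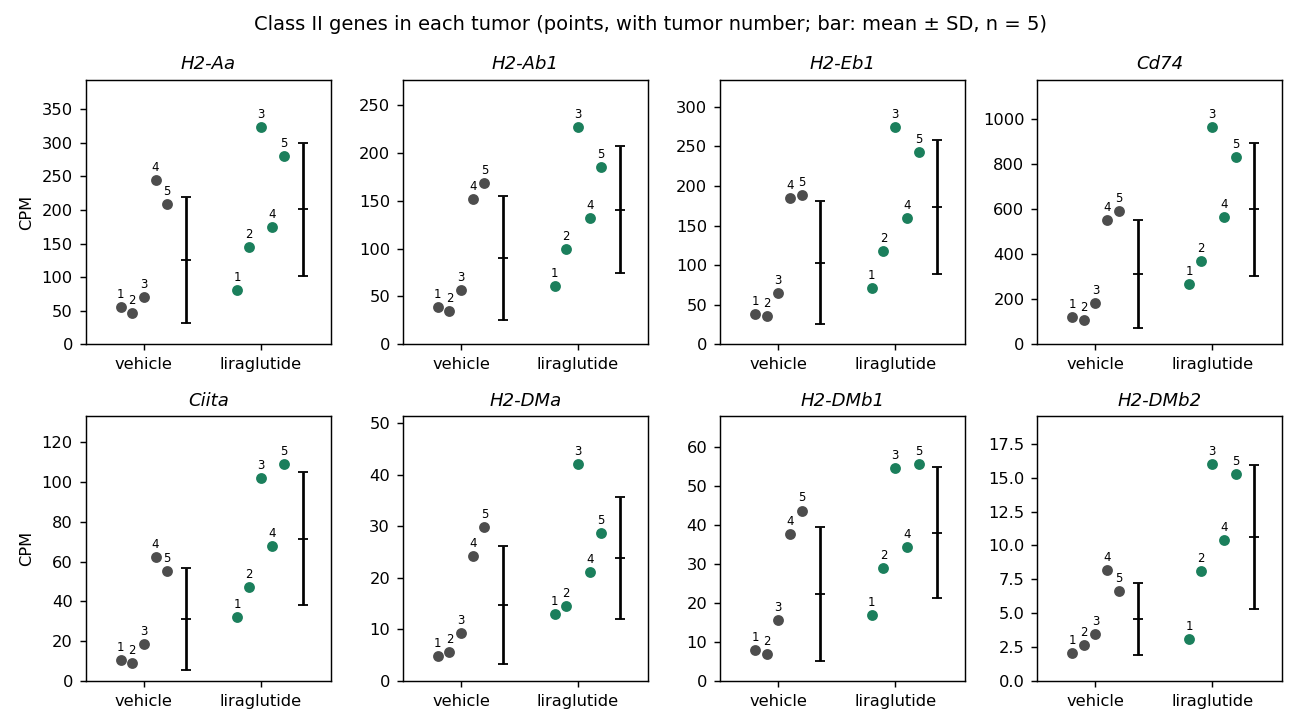
CPM of the 8 tested class II genes in each tumor, one panel per gene with a linear axis from 0; points are tumors with their numbers, and the bar beside each group is the mean ± SD (n = 5). Vehicle tumors 1 to 3 lie low and vehicle tumors 4 and 5 lie within the liraglutide range in every panel.

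Ciita (ENSMUSG00000022504.10), the switch of the pathway, measured 10.6, 8.82, 18.6, 62.3 and 55.5 CPM in vehicle tumors 1 to 5 and 32, 47.1, 102, 67.6 and 109 CPM in liraglutide tumors 1 to 5. The mean was 31.2 ± 25.7 CPM under vehicle against 71.6 ± 33.6 CPM under liraglutide (SD, n = 5 each). Vehicle tumors 1 to 3 lay below every liraglutide tumor, and liraglutide tumors 3, 4 and 5 lay above every vehicle tumor, while liraglutide tumors 1 and 2 lay below vehicle tumors 4 and 5. The log2 fold change was 1.20 (SE 0.56, 95% interval -0.04 to 2.43, adjusted p = 0.529 with edgeR), and an exact permutation test of log2 CPM gave a two-sided p = 0.0714. Vehicle tumors differed among themselves by up to 7.07-fold, the widest range of the 8 tested genes. Counts are per gene, so the alternative first exons of Ciita, which different cell types use, are not separated. Dexi, whose exons overlap those of Ciita, measured 6.59 to 12.9 CPM with vehicle and 9.85 to 22 CPM with liraglutide (log2 fold change 0.76, SE 0.26, adjusted p = 0.482), and how far reads of one gene entered the count of the other was not tested.

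H2-Aa (ENSMUSG00000036594.15), which encodes the alpha chain of the I-A molecule, measured 55.3, 47.2, 69.6, 244 and 209 CPM in vehicle tumors 1 to 5 and 80.9, 145, 323, 175 and 280 CPM in liraglutide tumors 1 to 5. The same 3 vehicle tumors were low as for Ciita, liraglutide tumor 3 was highest, and liraglutide tumor 4 lay below both high vehicle tumors. The means were 125 ± 94 CPM and 201 ± 99 CPM (SD, n = 5 each), with a log2 fold change of 0.68 (SE 0.52, 95% interval -0.45 to 1.81, adjusted p = 0.668). H2-Ab1 (ENSMUSG00000073421.6), the gene of its beta chain partner, measured 38.5, 34.5, 56.4, 152 and 169 CPM with vehicle and 61.3, 99.3, 227, 132 and 186 CPM with liraglutide. Its log2 fold change of 0.65 (SE 0.50, 95% interval -0.44 to 1.74, adjusted p = 0.671) was the smallest of the 8. H2-Eb1 (ENSMUSG00000060586.11), the beta chain gene of the I-E molecule, went from 35.8 to 189 CPM with vehicle and from 70.6 to 274 CPM with liraglutide (log2 fold change 0.75, SE 0.53, adjusted p = 0.649). For each of the chain genes, 2 of 5 liraglutide tumors lay above all vehicle tumors and all 5 lay above the vehicle median. C57BL/6 mice carry a deletion in the H2-Ea gene and make no I-E alpha chain, and H2-Ea had 0 counts in the vehicle tumors and 0 to 2 counts in the liraglutide tumors. The second E beta gene, H2-Eb2, was low, at 1.09 ± 1.18 CPM under vehicle and 3.64 ± 2.42 CPM under liraglutide (SD, n = 5 each, log2 fold change 1.74, SE 0.74, adjusted p = 0.514).

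Cd74 (ENSMUSG00000024610.15), the invariant chain gene, had the highest level of the members. It measured 121, 109, 183, 552 and 594 CPM in vehicle tumors 1 to 5 and 266, 372, 964, 567 and 831 CPM in liraglutide tumors 1 to 5. Liraglutide tumors 3 and 5 exceeded every vehicle tumor, liraglutide tumor 4 fell between the high vehicle tumors, and liraglutide tumors 1 and 2 fell in the gap between the low and the high ones. The means were 312 ± 241 CPM and 600 ± 296 CPM (SD, n = 5 each). The log2 fold change was 0.94 (SE 0.53, 95% interval -0.23 to 2.12, adjusted p = 0.584 with edgeR), and the exact permutation p was 0.119.

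The DM genes encode the catalyst that removes CLIP. H2-DMb2 (ENSMUSG00000037548.15), one of the duplicated beta chain genes, measured 2.07, 2.64, 3.46, 8.2 and 6.6 CPM with vehicle and 3.11, 8.08, 16, 10.4 and 15.3 CPM with liraglutide. Liraglutide tumors 3, 4 and 5 were above all vehicle tumors, and liraglutide tumor 1 was below vehicle tumor 3. Its log2 fold change of 1.20 (SE 0.47, 95% interval 0.16 to 2.24) had an unadjusted p of 0.0275 and an adjusted p of 0.5 with edgeR, and the exact permutation p was 0.0794. H2-DMb1 (ENSMUSG00000079547.4), the other beta chain gene, was at 22.4 ± 17.2 CPM with vehicle and 38 ± 16.8 CPM with liraglutide (SD, n = 5 each; log2 fold change 0.76, SE 0.52, adjusted p = 0.639). H2-DMa (ENSMUSG00000037649.10), the gene of the alpha chain, was at 14.7 ± 11.5 CPM and 23.9 ± 11.9 CPM (SD, n = 5 each; log2 fold change 0.70, SE 0.52, adjusted p = 0.667). For H2-DMa, 1 of 5 liraglutide tumors exceeded all vehicle tumors, the fewest among the tested members. Single tumors moved several of these values by over 1.5 times. Without liraglutide tumor 3 the log2 fold change was 0.40 for H2-DMa, 0.45 for H2-Aa and 0.41 for H2-Ab1. Without vehicle tumor 5 it was 1.13 for H2-DMa, 1.16 for H2-DMb1 and 1.01 for H2-Ab1, and without vehicle tumor 4 it was 1.08 for H2-Aa. The order of H2-DMb1 and H2-DMb2 is subject to the bases they share.

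H2-Oa and H2-Ob, whose products form the DM inhibitor DO, were too low for the test. H2-Oa (ENSMUSG00000024334.9) had 1, 2, 1, 8 and 7 counts in vehicle tumors 1 to 5 and 0, 2, 1, 6 and 10 counts in liraglutide tumors 1 to 5. H2-Ob (ENSMUSG00000041538.16) had 5, 4, 1, 22 and 29 counts with vehicle and 9, 13, 14, 5 and 8 counts with liraglutide. Within the vehicle group H2-Ob was thus highest in tumors 4 and 5, like the other members. Within the liraglutide group it was highest in tumor 3, with 14 counts, and lowest in tumor 4, with 5 counts. Liraglutide tumor 5, high in the other members, had 8 counts of H2-Ob, near the 9 counts of liraglutide tumor 1. At such counts the order of the liraglutide tumors is uncertain. No difference between the groups was detected for either gene at these counts and with this spread between tumors (22.5-fold among the vehicle tumors for H2-Ob; exact permutation tests of CPM, p = 0.905 and 0.643). Of the 10 B cell genes listed, 6 stayed under 1 CPM in every tumor, among them Ms4a1 with at most 10 counts and Cd79a with at most 7, whereas Pax5 reached 46 counts (3.75 CPM) in a vehicle tumor and Cd22 and Cr2 reached 60 and 49 counts.

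Levels of different genes were compared per kb of the canonical transcript, as the mean over the 10 tumors. In CPM per kb, Cd74 came first at 319, followed by H2-Aa at 144, H2-Ab1 at 95.3, H2-Eb1 at 81.3, H2-DMb1 at 21.5, H2-DMa at 16.8, Ciita at 6.86, H2-DMb2 at 5.19, H2-Ob at 0.333 and H2-Oa at 0.262. Each gene from Cd74 to H2-DMa exceeded the next in 10 of 10 tumors, Ciita exceeded H2-DMb2 in 9 of 10, and H2-Ob exceeded H2-Oa in 6 of 10, so the last 2 were not ordered. The order of neighbors depended on the length used. Per kb of all annotated exons, H2-Aa fell to rank 4, below H2-Eb1 and H2-Ab1, and Ciita stood above H2-DMa.

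The spread between tumors of one group was wide for these genes. The 8 tested members together with H2-Oa and H2-Ob took 0.0279%, 0.0238%, 0.0404%, 0.129% and 0.126% of the counts in vehicle tumors 1 to 5 and 0.0547%, 0.0837%, 0.202%, 0.12% and 0.182% in liraglutide tumors 1 to 5. Vehicle tumors thus formed a low set of 3 and a high pair. Liraglutide tumors 1, 2 and 4 lay between these, with tumor 4 close to the high pair. The SD of log2 CPM among vehicle tumors was 0.82 to 1.31 for the 8 genes, against a median of 0.35 over all tested genes, and 0.69 to 0.93 among liraglutide tumors, against 0.27. Ciita varied more among vehicle tumors than 97% of tested genes, and H2-DMb2, at the lower end, more than 88.7%. Over the 28 pairs of these 8 genes, Pearson's r of log2 CPM across the 10 tumors was between 0.906 and 0.998 (median 0.982), and it was between 0.882 and 0.998 after the group means had been subtracted. The points share libraries, so these values are given as a description.

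**Figure D2:**
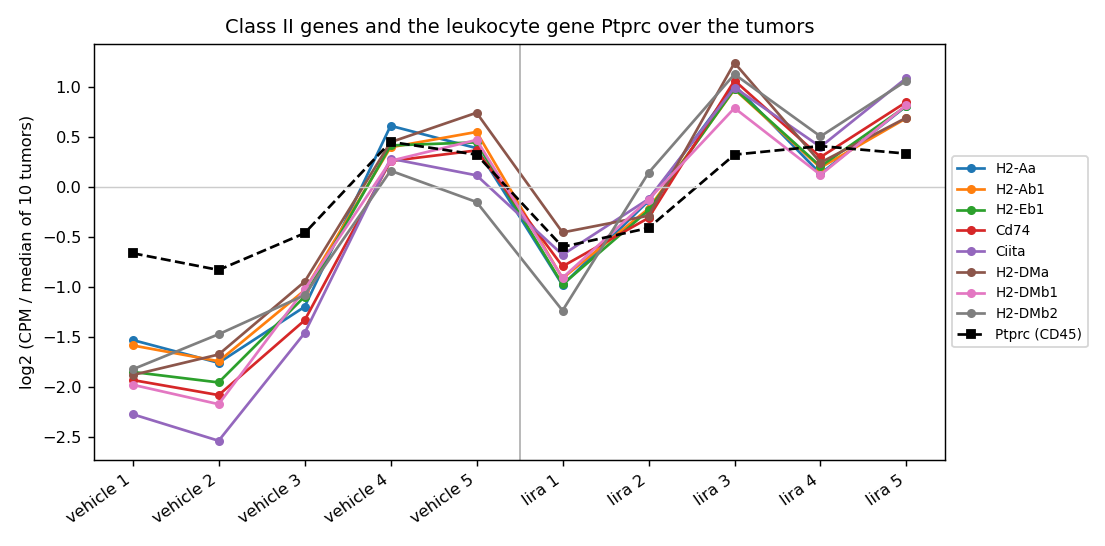
Level of the 8 class II genes and of Ptprc in each tumor, as log2 of the CPM over the gene's own median of 10 tumors; lines join the values of one gene and imply no order of the tumors. The class II genes move together and over a wider range than Ptprc, with vehicle tumors 1 to 3 lowest for all but H2-DMb2, which was lower in liraglutide tumor 1 than in vehicle tumor 3.

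The genes outside the list whose profile over the 10 tumors was most like the mean of the 8 members (standardized log2 CPM) were Hrh2 (r = 0.99), Mpeg1 (r = 0.986), Zc3h12d, Rab27a, Dock2, Chpt1, Plxnc1, Tmem50b, Tnfsf10 and Dennd1c (r = 0.977). For Ciita alone they were Hrh2 (r = 0.989), Mpeg1 (r = 0.986), Vps28, Bmp4 and Icam1 (r = 0.98). These are the highest of all tested genes and were picked for that, so their values are a description.

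Class II levels were then set beside genes of the cells that carry class II. Ptprc, which encodes CD45 on all leukocytes, measured 35.6, 31.7, 40.9, 77 and 70.5 CPM in vehicle tumors 1 to 5 and 37.2, 42.4, 70.5, 74.8 and 71 CPM in liraglutide tumors 1 to 5. The tumors fell into 5 with at most 42.4 CPM of Ptprc and 5 with at least 70.5 CPM, with a gap of 0.575 of the range of log2 CPM between them, so no correlation over all tumors is given for this gene. Among the 5 tumors low in Ptprc, Cd74 was 109 to 183 CPM in vehicle tumors 1 to 3 and 266 and 372 CPM in liraglutide tumors 1 and 2. Among the 5 tumors high in Ptprc, Cd74 was 552 and 594 CPM in vehicle tumors 4 and 5 and 567, 831 and 964 CPM in liraglutide tumors 4, 5 and 3. The difference was not tested within either set.

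**Figure D3:**
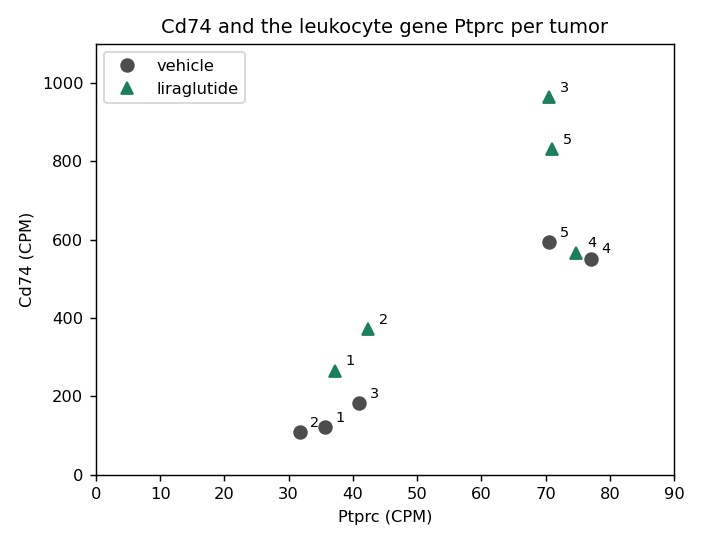
Cd74 (vertical axis) against Ptprc (horizontal axis), both in CPM on linear axes, with each point a tumor and its number beside it. On the left, at 31.7 to 42.4 CPM of Ptprc, both liraglutide tumors lie above the 3 vehicle tumors, and on the right, at 70.5 to 77 CPM, liraglutide tumor 4 lies between the vehicle tumors.

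Correlations with Cd74 across the 10 tumors were computed for 5 other genes, over which p-values were adjusted, and 4 of them are given. Ciita gave Pearson's r = 0.99 and Spearman's rho = 0.952 (permutation test, p = 3.0e-05 and 1.5e-04, adjusted p = 1.5e-04 for r), and r was 0.981 without the 2 tumors farthest from the median of Ciita. The class I gene H2-K1 gave r = 0.928 and rho = 0.927 (permutation test, p = 1.6e-04 and 3.7e-04, adjusted p = 2.2e-04), with r = 0.832 without the farthest 2. Itgax, which encodes CD11c of dendritic cells and some macrophages, gave r = 0.931 and rho = 0.842 (permutation test, p = 1.8e-04 and 0.0038, adjusted p = 2.2e-04), with r = 0.899 without the farthest 2. Csf1r, the macrophage growth factor receptor gene, gave r = 0.767 and rho = 0.818 (permutation test, p = 0.00856 and 0.0059, adjusted p = 0.00856). Without liraglutide tumor 3 and vehicle tumor 2 it gave r = 0.557 (permutation p = 0.152) and rho = 0.643, and on deviations from group means r = 0.726 (permutation p = 0.0203). Leaving out the farthest tumors also narrows the range of Csf1r, so how far this relation rested on them cannot be told.

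A ratio of 2 genes within a tumor does not depend on library scaling. Of the 12 ratios chosen, 11 could be tested (exact permutation test of the log2 ratio, two-sided, adjusted over the 11), and 5 tumors against 5 allow no p below 0.00794. The ratios that reached this p numbered 3 (adjusted p = 0.0291), with the groups apart in each. Ciita per Ptprc count was 0.299, 0.278, 0.454, 0.81 and 0.786 in vehicle tumors 1 to 5 and 0.858, 1.11, 1.45, 0.904 and 1.53 in liraglutide tumors 1 to 5. All liraglutide tumors were thus higher than all vehicle tumors, by 2.39-fold in the mean of the logs (log2 difference 1.25, group SDs 0.73 and 0.38), although the nearest tumors of the groups, at 0.81 and 0.858, were close. Of all tested genes, 0.155% had a ratio to Ptprc that was higher in all liraglutide than in all vehicle tumors.

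H2-Ab1 per Cd74 count was 0.318, 0.315, 0.308, 0.275 and 0.284 in vehicle tumors 1 to 5 and 0.23, 0.267, 0.236, 0.233 and 0.223 in liraglutide tumors 1 to 5. The liraglutide tumors were all lower, with a log2 difference of -0.34 (group SDs 0.10 and 0.10), and 0.401% of tested genes had a ratio to Cd74 that was lower in all liraglutide tumors. H2-Aa per Ciita count was 5.19, 5.36, 3.75, 3.92 and 3.78 with vehicle and 2.53, 3.08, 3.15, 2.58 and 2.57 with liraglutide. This ratio was lower in every liraglutide tumor as well (log2 difference -0.64, group SDs 0.25 and 0.16), as were the ratios to Ciita of 1.31% of tested genes. In other words, Ciita was counted 18.7 to 26.7 times per 100 counts of H2-Aa with vehicle and 31.7 to 39.5 times with liraglutide. Within the vehicle group H2-Aa per Ciita was highest in tumors 1 and 2, which were lowest in class II RNA.

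The other ratios did not pass after adjustment. Cd74 to Ptprc differed by 0.92 on the log2 scale (exact permutation p = 0.0397, adjusted p = 0.0873), Cd74 to Csf1r by 0.93 (adjusted p = 0.122) and Cd74 to Itgax by 0.75 (adjusted p = 0.112). H2-Aa, H2-Ab1 and H2-Eb1 to Ptprc differed by 0.62, 0.58 and 0.72 (adjusted p = 0.116, 0.116 and 0.112). H2-Aa to Cd74 differed by -0.30 (exact permutation p = 0.0238, adjusted p = 0.0655), in the direction of H2-Ab1 to Cd74, and 4 of 5 liraglutide tumors were lower than every vehicle tumor. H2-DMa to H2-Aa differed by 0.07 (adjusted p = 0.683), with ratios of 0.0875 to 0.142 with vehicle and 0.101 to 0.16 with liraglutide. When single tumors were left out, the 3 differences stayed between 1.06 and 1.45 for Ciita to Ptprc, -0.38 and -0.32 for H2-Ab1 to Cd74 and -0.69 and -0.57 for H2-Aa to Ciita, but the adjusted p, which 4 tumors against 5 give in coarse steps, did not always stay under 0.05. Without any 1 liraglutide tumor, Ciita to Ptprc had an adjusted p between 0.0873 and 0.109, and without vehicle tumor 1, 2, 3 or 4, H2-Ab1 to Cd74 had an adjusted p of 0.0582.

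**Figure D4:**
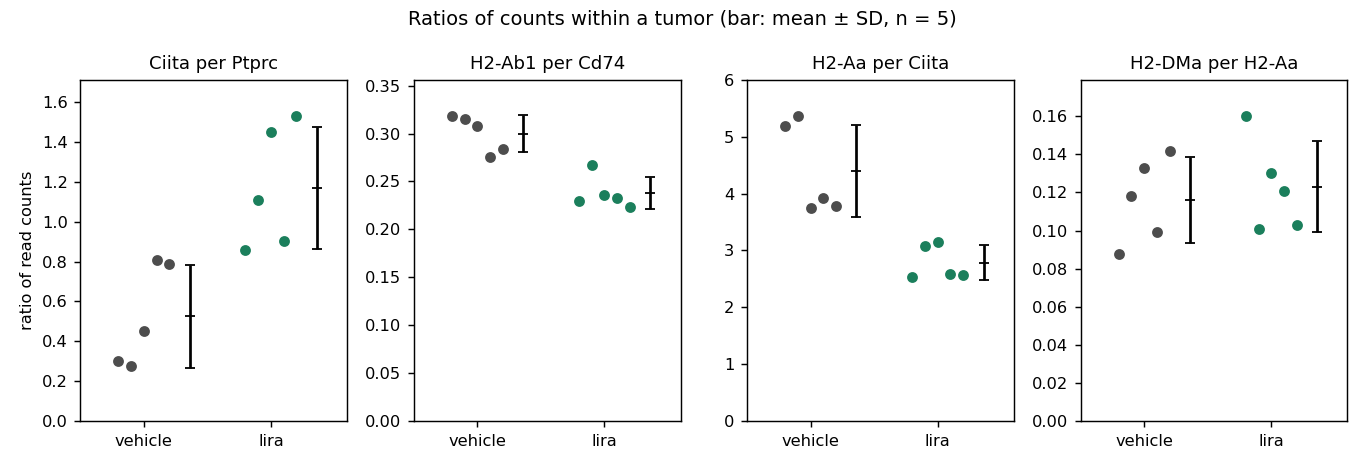
Ratios of read counts within a tumor, each panel with a linear axis from 0; points are tumors, and bars give the mean ± SD of the ratio (n = 5). The groups lie apart for Ciita per Ptprc, H2-Ab1 per Cd74 and H2-Aa per Ciita, and overlap for H2-DMa per H2-Aa.

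With log2 CPM of Ptprc as a covariate in the edgeR fit, all 8 tested members had a positive treatment coefficient and an unadjusted p under 0.05, against 5.47% of all tested genes in that direction. In that fit 0 of the members and 0 of all 17464 tested genes had an adjusted p under 0.05. The coefficients lay between 0.44 and 1.05 and their standard errors between 0.17 and 0.24. Ciita was at 1.05 (SE 0.19, unadjusted p = 1.4e-04, adjusted p = 0.269), Cd74 at 0.74 (SE 0.17, unadjusted p = 9.7e-04, adjusted p = 0.281), H2-DMb2 at 0.89 (SE 0.24, adjusted p = 0.293) and H2-Ab1 at 0.44 (SE 0.17, adjusted p = 0.384). Ptprc itself had a log2 fold change of 0.21 (SE 0.29, adjusted p = 0.816).

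**Figure D5:**
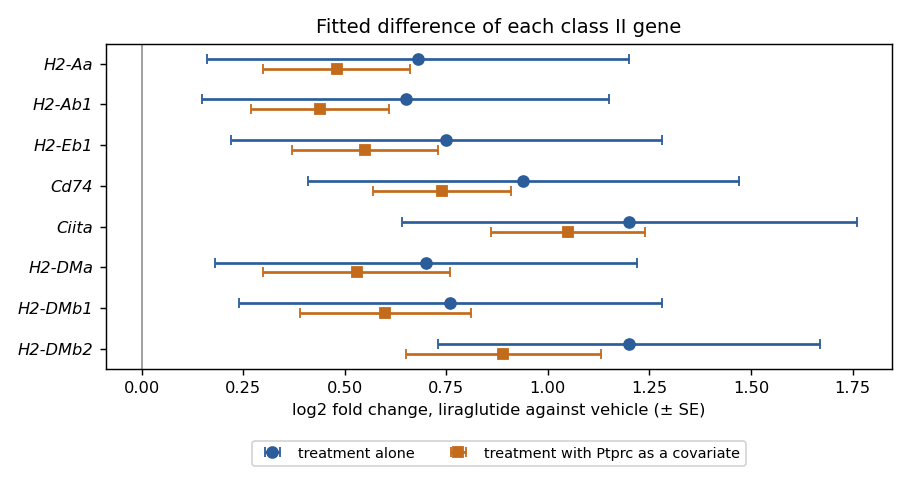
Log2 fold change of the 8 class II genes, liraglutide against vehicle, with bars of 1 SE, from the fit with treatment alone (circles) and from the fit with Ptprc as a covariate (squares). All values lie above 0, from 0.65 to 1.20 with treatment alone, and the bars are shorter with the covariate.

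Marker genes of the cells in the tumors were summed beside the class II genes. The 6 leukocyte genes summed to 96.2 to 195 CPM with vehicle and 110 to 179 CPM with liraglutide. The sum of the 12 macrophage and monocyte genes was 461 to 1003 CPM and 483 to 640 CPM, but Mrc1 alone, the mannose receptor gene, made up 217 to 761 CPM and 190 to 457 CPM of it and was highest in vehicle tumors 1 to 3, where class II was lowest. Without Mrc1, a choice made after seeing the data, the sum was 171, 172, 242, 286 and 244 CPM in vehicle tumors 1 to 5 and 206, 183, 343, 266 and 293 CPM in liraglutide tumors 1 to 5. The 12 dendritic cell genes summed to 39.8 to 92.9 CPM and 52.4 to 81.4 CPM, of which Itgax alone made up 12.7 to 40.6 CPM and 23.8 to 38 CPM. Of the 9 tested, 3 had a positive log2 fold change, Itgax among them at 0.28, and the median was -0.17. The 9 T cell genes summed to 8.7 to 27.6 CPM with vehicle (median 13.4) and 11.1 to 34.3 CPM with liraglutide (median 26.5). Of them 0 had an unadjusted p under 0.05, against 3.97% of all tested genes higher and 5.62% lower. Their median log2 fold change was 0.67, with 7 of 9 positive, beside a median of 0.76 for the class II genes. The medians of the leukocyte, macrophage and B cell lists were 0.21, 0.23 and 0.44. Of the 10 B cell genes 3 passed the filter, and their list summed to 3.67 to 10.6 CPM and 5.95 to 9.17 CPM. The 6 epithelial tumor cell genes summed to 4624 to 9716 CPM with vehicle and 4726 to 7028 CPM with liraglutide, with a median log2 fold change of 0.02 and 3 of 6 positive. Among them the keratin genes Krt8, Krt18 and Krt19 were at -0.26, -0.23 and -0.33 (adjusted p = 0.657, 0.643 and 0.689). Nkx2-1, whose log2 fold change had the opposite sign, measured 25.2, 17.7, 26.6, 95.4 and 66.6 CPM with vehicle and 66.1, 52.2, 109, 99.9 and 132 CPM with liraglutide, with the same 3 vehicle tumors lowest as for the tested class II genes other than H2-DMb2 (log2 fold change 0.99, SE 0.45, adjusted p = 0.52). The part of these cells in the class II levels was not tested.

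All 3 tumors high in keratinocyte genes were liraglutide tumors. In liraglutide tumors 1 to 5 the keratinocyte list summed to 7, 210, 7.96, 77.8 and 53.9 CPM, beside 266, 372, 964, 567 and 831 CPM of Cd74, and in vehicle tumors 1 to 5 to 9.05, 10.9, 18.8, 12 and 14.8 CPM. The part of keratinocyte RNA in the class II levels was not tested. Without liraglutide tumors 2, 4 and 5, a choice made after seeing the data, the median log2 fold change of the 8 class II genes was 0.84, and 0 of them had an unadjusted p under 0.05, against 2.29% of all tested genes in the higher direction in that fit. In the fit of all tumors, the 4 tested genes of the list with an unadjusted p under 0.05 were Krt5, Krt14, Krt1 and Dsg3, all higher with liraglutide, as were 3.97% of all tested genes.

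Genes upstream of class II were tested as lists. Over all tested genes, 3.97% were higher and 5.62% were lower at an unadjusted p under 0.05. Of the 7 promoter factors, 0 had an unadjusted p under 0.05 and the median log2 fold change was 0.00. Among them Rfx5, the DNA-binding RFX subunit, was at 0.47 (SE 0.30, adjusted p = 0.611) and Nfyb, an NF-Y subunit, at -0.19 (SE 0.11, adjusted p = 0.58). Of the 12 genes on the route from interferon-gamma to Ciita, 11 were tested, 0 had an unadjusted p under 0.05 and the median was 0.20. Irf1, an interferon-induced factor that acts at the inducible Ciita promoter, was at 0.60 (SE 0.37, adjusted p = 0.605). Ifng, the gene of the cytokine, had 0 to 11 counts per tumor and was not tested.

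Genes that act after class II synthesis were tested in the same way. Of the 9 endosomal protease and processing genes, 1 was higher and 0 were lower at an unadjusted p under 0.05, against 3.97% and 5.62% of all tested genes. Their median log2 fold change was 0.18. That gene was Ctsc, which encodes a dipeptidyl peptidase that activates serine proteases of immune granules (0.56, SE 0.24, adjusted p = 0.515). Ctss, the cathepsin that trims invariant chain in antigen-presenting cells, was at 0.33 (SE 0.29, adjusted p = 0.706), and Ctsl, which does so in thymic epithelium, at -0.55 (SE 0.32, adjusted p = 0.593). For the 3 turnover genes the median was 0.12, with Marchf1, the ligase that removes class II from the surface, at 0.36 (SE 0.23, adjusted p = 0.622), and for the 6 costimulators it was 0.15, each list with 0 genes at an unadjusted p under 0.05. The class II receptors Cd4 and Lag3 were at 0.46 and 0.42 (adjusted p = 0.679 and 0.668).

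The 10 genes of class I presentation, the parallel pathway for peptides from inside the cell, had a median log2 fold change of 0.40. All 10 values were positive, against 47.4% of all tested genes. At an unadjusted p under 0.05 there were 0 of the 10, against 3.97% of all tested genes higher and 5.62% lower. Tapbp, the gene of tapasin, was at 0.70 (SE 0.35, adjusted p = 0.541), Nlrc5, the class I transactivator and a relative of Ciita, at 0.50 (SE 0.60, adjusted p = 0.784), and H2-K1 at 0.23 (SE 0.51, adjusted p = 0.895). Nlrc5 was 16.4, 24.6, 43.6, 113 and 210 CPM in vehicle tumors 1 to 5, with the highest value of all 10 tumors in vehicle tumor 5, whereas the highest Ciita, H2-DMb1, Cd74 and H2-Aa values were in liraglutide tumors. Whether the class I and class II lists differed in their response was not tested.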

How the data were processed

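RNA of 10 subcutaneous KPN1.1 tumors was sequenced, 5 from liraglutide-treated and 5 from vehicle-treated obese mice, and groups and tumor numbers were taken from the sample titles. Libraries were made after ribosomal RNA depletion from total RNA with a dUTP-stranded kit and sequenced as read pairs. The authors deposited whole-number counts per gene with no normalization. Their methods name GRCm39, Bowtie 1.0.1, TopHat 2.0.13 and featureCounts, while the submitters' processing notes list mm10 and GRCh38 beside these aligners, so the build behind the counts is uncertain; the annotation release and strand setting are not given in the sources used here. Of the versioned Ensembl identifiers, 93.38% (98.31% of the counts) matched GENCODE M39, which gave symbols and GRCm39 positions, and 35 had the same version. RefSeq promoter windows are on GRCm38.p6 and were not converted.

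Low genes were removed with filterByExpr, and 17464 genes were fitted with edgeR 4.0.16 (TMM, quasi-likelihood F test, treatment as the single factor, R 4.3.3) with Benjamini-Hochberg adjustment over all of them. A gene was called with the study's thresholds, an adjusted p below 0.05 and a log2 fold change beyond 0.58 in either direction. CPM use TMM-scaled library sizes, and log2 CPM and ratios a prior count of 2. Standard errors are the log2 fold change divided by the square root of F. Ratios and single genes were compared by exact permutation tests, and correlations by 100000 resamples (SciPy 1.17.1). Floors (3 counts) cover counting error only. That the tumors came from separate mice is not written on each label, so p-values measure the spread between these tumors. All 10 members are named, and of most lists up to 4 genes, by smallest unadjusted p or as a defining gene. More than 4 are named of the B cell list and of the Langerhans cell and keratinocyte list. The endothelial, fibroblast and adipocyte lists, taken only to describe the tumors, summed to 90 to 145, 804 to 2182 and 15.3 to 83.1 CPM over all tumors. The members and lists were chosen with earlier results of these data known. The alternatives were DESeq2 1.42.0, library size alone or DESeq2's size factors in edgeR, limma-voom (limma 3.58.1), 2 other filters, Ptprc as a covariate, a replicate block, each tumor left out in turn, another prior count, and, added after seeing the data, 3 tumors left out together and the macrophage sum without Mrc1. The fits were tested on simulated data. Some genes of the lists and some details of the line are not reported here.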

Additional observations from a re-analysis of the deposited data

How the results depend on the processing

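The class II genes were refitted under 19 alternatives. In all 152 combinations of a member and an alternative the direction was that reported, and in 0 was the adjusted p under 0.05 (range 0.214 to 0.925, with none given by DESeq2 for H2-DMa and H2-DMb2). Over all tested genes, too, 0 had an adjusted p under 0.05 in each alternative but DESeq2, where 26 of 35103 did. The median log2 fold change of the 8 genes lay between 0.53 and 1.15. The number of members at an unadjusted p under 0.05, which was 1, was 2 with DESeq2, limma-voom and all genes with at least 1 count, 8 with Ptprc as a covariate and 0 without the 3 tumors high in keratinocyte markers. It was 0 to 3 when each tumor was left out in turn, with 3 without vehicle tumor 4 or 5 and 0 without vehicle tumor 1, 2 or 3 or liraglutide tumor 3 or 5. The percentage of all tested genes with such a p in the higher direction moved as well, from 3.97 to 7.12 and 6.1 without vehicle tumor 4 or 5, to 2.67, 2.5 and 3.74 without vehicle tumor 1, 2 or 3, to 2.67 and 2.21 without liraglutide tumor 3 or 5, and to 2.29 without the 3 tumors. The cause of these shifts was not tested. Over all genes, DESeq2 called 12, of which 0 were members. With library size alone the genes at an unadjusted p under 0.05 were 990 higher and 619 lower, against 694 and 981, and the median over all genes moved from -0.02 to 0.04.

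Tumor numbers shared between the groups do not mark a known pairing. As deviations from their group means, tumors with the same number correlated by 0.354, 0.565, -0.0753, 0.0681 and 0.389, and 1 of 5 vehicle and 2 of 5 liraglutide tumors correlated best with their own number. With the number as a replicate block, 8 members had an unadjusted p under 0.05, in the higher direction like 7.5% of all tested genes, and 0 were called.

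Of the 11 ratios 3 were called, and also 3 with a prior count of 0.5, against 2 to 4 when each tumor was left out. Cd74 to Ptprc reached an adjusted p of 0.0437 without vehicle tumor 5. The log2 ratio of H2-DMa to H2-Aa turned from 0.07 to -0.02 without vehicle tumor 1 and to -0.03 without liraglutide tumor 1, in a range of -0.03 to 0.15. The correlation of Cd74 with Csf1r was 0.557 without the 2 farthest tumors. H2-Oa and H2-Ob rest on at most 10 and 29 counts per tumor.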
